A study of Mus musculus with 22 samples.

Results

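Nuclear receptors and the coregulators that they recruit were followed in sorted endocrine cells of the mouse pancreas with and without the LIM-homeodomain transcription factor ISL1. The group held 47 genes, 40 for receptors of thyroid hormone, steroids, vitamins and lipids or for orphan receptors, and 7 for coregulators, listed by gene symbol. The list was drawn up with earlier results of these data known. Of these, 45 were among the 27124 genes counted at embryonic day E14.5 and 45 among the 27504 counted at postnatal day P9, with 44 in both. *Nr2e1* was missing at E14.5, *Nr1i3* at P9, and *Nr0b1*, the gene for the receptor DAX1, at both ages. *Isl1CKO* mice carried *Isl1* f/f, *Neurod1* Cre and the Ai14 tdTomato reporter, whereas the controls carried *Isl1* f/+ with the same Cre and reporter, although their labels call them wild type. *Neurod1* Cre acts in the endocrine lineage, so the sort on tdTomato took cells that had expressed it, and all 4 groups share Cre, reporter and C57BL/6 background. RNA-seq libraries, each from 100 sorted tdTomato+ cells of littermates of both sexes, numbered 6 controls and 5 *Isl1CKO* at E14.5, and 5 controls and 6 *Isl1CKO* from pups at P9 to P10. The p-values measure the spread between these libraries.

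Nuclear receptors are transcription factors whose activity is set by small, mostly fat-soluble ligands, such as thyroid hormone, retinoic acid, glucocorticoids, vitamin D, oxysterols, bile acids and fatty acids. Many bind DNA as dimers with a retinoid X receptor on repeats of the core motif AGGTCA, recruit coactivators of the NCOA family when ligand is bound, and recruit corepressors such as NCOR1 when it is not. In islet cells this family is known for HNF4A, which is mutated in a form of monogenic diabetes, for the thyroid hormone receptors in β-cell maturation, and for the PPAR and LXR receptors in lipid handling.

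Each library held 8477482 to 13580985 counts, and the 8 islet hormone genes took 2.44% to 6.17% of the counts in E14.5 controls, 0.71% to 2.49% in E14.5 *Isl1CKO*, 51.1% to 56.4% in P9 controls and 14% to 30.2% in P9 *Isl1CKO*. Levels are given as CPM, the count relative to the TMM-scaled library size, on a common scale of all 22 libraries. At this depth 1 CPM stood for 14.2 to 18.4 counts at E14.5 and 6.32 to 11.6 at P9. *Isl1* itself was at 922 ± 84.9 CPM in controls (SD, n = 6) and 658 ± 62.8 in *Isl1CKO* (n = 5) at E14.5, but at 456 ± 61.7 (n = 5) and 965 ± 295 (n = 6) at P9. All its exons were counted together, so these values do not check the deletion. The 7 macrophage markers summed to 58.9, 81.7 and 41.7 CPM in *Isl1CKO* libraries 3, 4 and 5 of E14.5, against 31.7 and 27.3 in libraries 1 and 2 and 27.9 to 43 in controls. Hepatoblast markers summed to 73.5 to 229 CPM in E14.5 *Isl1CKO* and 33.3 to 87.3 in controls. Pan-endocrine, α-cell and β-cell markers were present in every group, but shifted with the genotype. The 8 α-cell markers summed to 9752 to 20082 CPM in E14.5 controls and 5610 to 8896 in *Isl1CKO*, and to 27743 to 106141 and 6810 to 10544 at P9, without overlap at either age. The 10 β-cell markers summed to 8413 to 29562 and 3133 to 16347 CPM at E14.5, and to 695351 to 974552 and 135441 to 338174 at P9, apart at P9. Both lists include hormone genes. The 9 pan-endocrine markers summed to 9582 to 13424 CPM in E14.5 controls and 18007 to 20752 in *Isl1CKO*. At P9 they summed to 18623 to 21048 and 44670 to 65933 CPM, without overlap at either age. The 5 δ-cell markers overlapped at both ages, at 2535 to 6117 and 1516 to 2752 CPM, and then 463 to 1764 and 870 to 2620. Of these, the hormone gene *Sst* held 3293 counts in all P9 controls and 3 in all P9 *Isl1CKO*.

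In control cells the corepressor gene *Ncor1*, the vitamin D receptor gene *Vdr* and the glucocorticoid receptor gene *Nr3c1* stood highest per exon length at both ages. Per kilobase of exon (RPKM), *Ncor1* was at 12.9 ± 1.13, *Vdr* at 12.4 ± 2.36 and *Nr3c1* at 11.8 ± 2.63 in E14.5 controls (SD, n = 6), which did not differ beyond their spread. They were followed by *Nr1h2*, the gene for the oxysterol receptor LXRβ, at 10.1 ± 2.37, and by *Nr1h4*, which encodes the bile acid receptor FXR, at 8.52 ± 1.77. In P9 controls (n = 5) *Ncor1*, *Vdr* and *Nr3c1* were at 25.2 ± 3.64, 24.2 ± 5.13 and 23.9 ± 3.52 RPKM, again within their spread, ahead of the coactivator gene *Ncoa1* at 14.7 ± 1.43 and the clock receptor gene *Nr1d2* at 14 ± 3.21. In *Isl1CKO*, *Vdr* had the highest mean at both ages, 19.7 ± 2.04 RPKM at E14.5 (n = 5), above *Ncor1* at 11.7 ± 0.888, and 28.3 ± 7.97 at P9 (n = 6), within the spread of *Ncor1* at 24.3 ± 4.47. The 5 highest members made up 47.7% of the summed RPKM of the family in E14.5 controls, 52.6% in E14.5 *Isl1CKO*, 52.8% in P9 controls and 54.5% in P9 *Isl1CKO*.

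At 10 CPM or more stood 18 of 45 members in E14.5 controls, 17 in E14.5 *Isl1CKO*, 21 in P9 controls and 20 in P9 *Isl1CKO*. Under 1 CPM were 12, 12, 5 and 9 members in the same order. Among the members at 10 CPM or more, the median coefficient of variation between libraries was 21.8% and 16.7% in E14.5 controls and *Isl1CKO*, and 34.1% and 28.5% at P9. These medians were thus higher at P9, although they cover sets of members that differ between the groups.

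**Figure D1:**
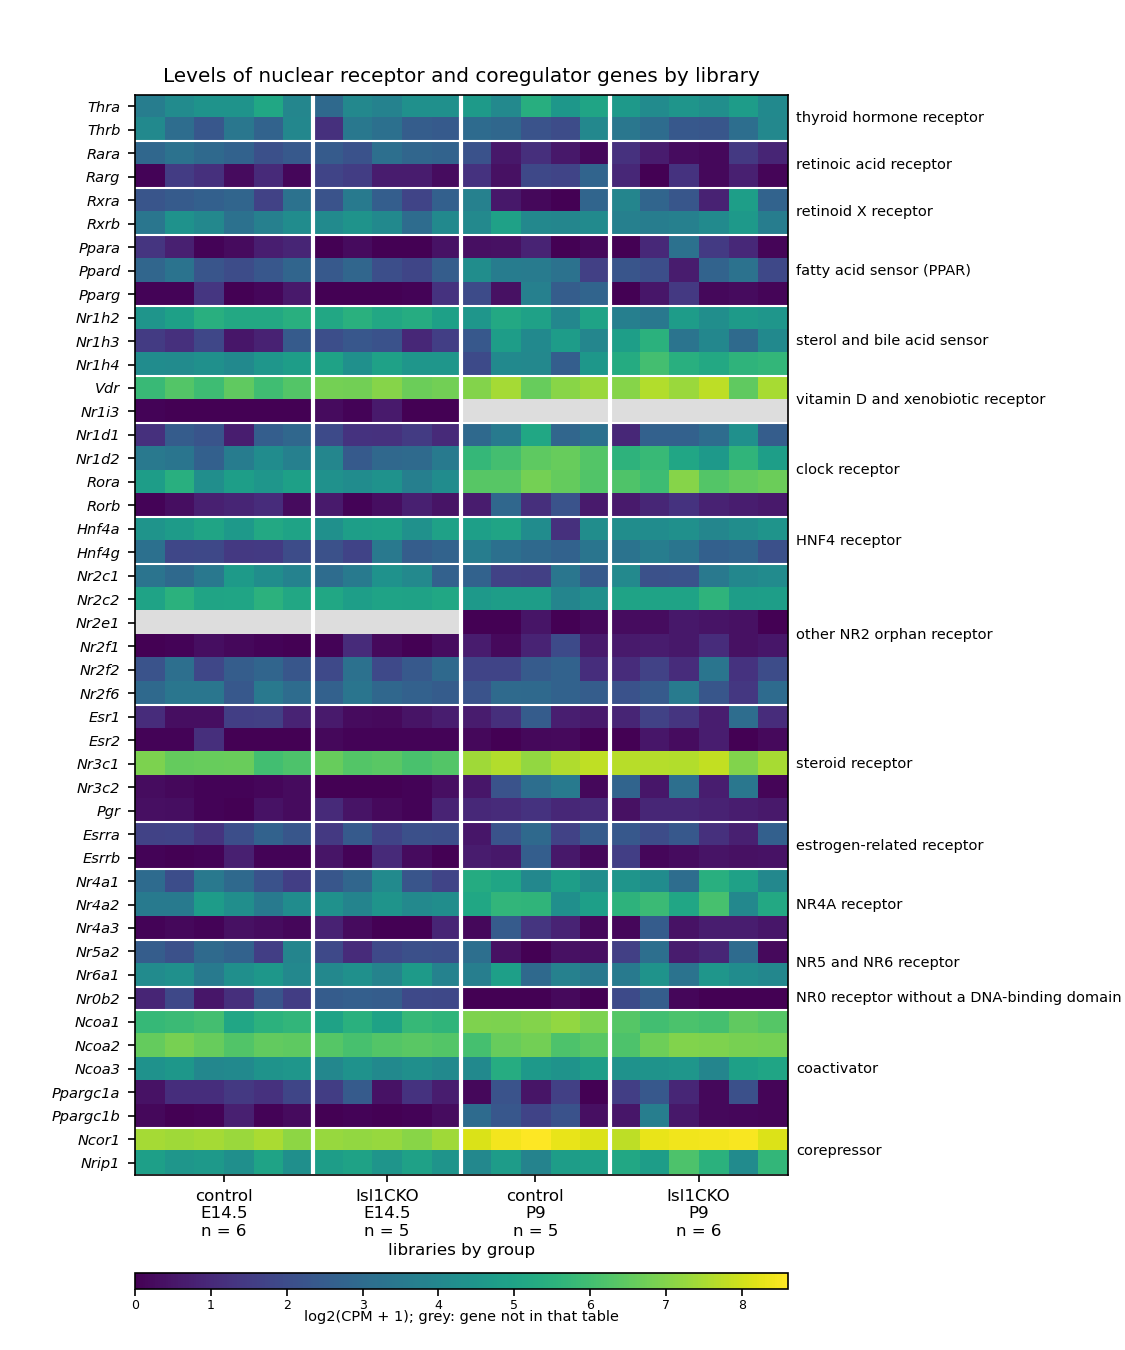
Level of 46 of the 47 genes in each of the 22 libraries as log2(CPM + 1), with genes in rows by role and libraries in columns by group; grey marks a gene missing from the count table of that age. *Ncor1*, *Nr3c1*, *Vdr* and *Ncoa2* are bright in every column, *Nr1d2* and *Rora* brighten at P9, and *Nr1h4* is brightest in the 6 *Isl1CKO* libraries of P9.

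At E14.5, *Vdr* rose in *Isl1CKO* and no other member passed the test. *Vdr* encodes the receptor for calcitriol, the active form of vitamin D, and lies at chr15:97854425-97910630 on the minus strand (GRCm38). It was at 56.2 to 89.6 CPM in the 6 controls, with a median of 68.9. The 5 *Isl1CKO* libraries held 110, 107, 131, 101 and 108 CPM, and each was above every control library. The log2 fold change was 0.67 (standard error 0.13), a 1.59-fold rise (adjusted p = 0.018, edgeR's quasi-likelihood test with Benjamini-Hochberg adjustment over 15960 genes). In these sorted bulk samples a change in the number of cells that express a gene and a change per cell cannot be told apart.

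Of the 33 members tested at E14.5, *Vdr* was the 1 called higher and none was called lower by edgeR, where 0.602% of all tested genes were called higher and 0.827% lower. DESeq2 called *Vdr* higher and also *Rora*, for the retinoid-related orphan receptor RORα, lower. *Vdr* was also the only member tested whose libraries did not overlap between the genotypes, against 2.43% of all tested genes. At an unadjusted p under 0.05 were 5 members. Besides *Vdr* these were *Rora* at -0.68 ± 0.21 on the log2 scale (± standard error, as in all fold changes here; edgeR, adjusted p = 0.16), *Nr5a2*, the gene for LRH-1, at -1.23 ± 0.47 (adjusted p = 0.3 from edgeR), *Nr0b2*, the gene for the small heterodimer partner SHP, at 1.11 ± 0.50 (adjusted p = 0.41 from edgeR), and the coactivator gene *Ncoa2* at -0.26 ± 0.10 (adjusted p = 0.33 from edgeR). *Rora* was at 18.2 to 41.7 CPM in controls with a median of 26.9, and at 12.1 to 19.8 with a median of 17.1 in *Isl1CKO*, so that the ranges overlapped. The median log2 fold change over the 33 members was -0.06, and over all tested genes -0.005.

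The call of *Vdr* was kept in 10 of 11 fits with 1 library left out. Without *Isl1CKO* library 3, the highest, its log2 fold change was 0.60 with an adjusted p of 0.054 (edgeR), which left no member called. That library was among the 3 with high macrophage markers; without those 3 libraries the log2 fold change was 0.63 (adjusted p = 0.33 from edgeR), with the 2 remaining *Isl1CKO* libraries at 110 and 107 CPM, above every control library. The lower α-cell and the higher pan-endocrine and hepatoblast markers of E14.5 *Isl1CKO* given above moved with this result. Their part in it was not tested. At P9, *Vdr* was at 127, 171, 95.6, 135 and 156 CPM in controls and at 89.4 to 213 in *Isl1CKO* (median 166), or 0.22 ± 0.21 higher on the log2 scale (edgeR, adjusted p = 0.68). The ranges overlapped widely.

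**Figure D2:**
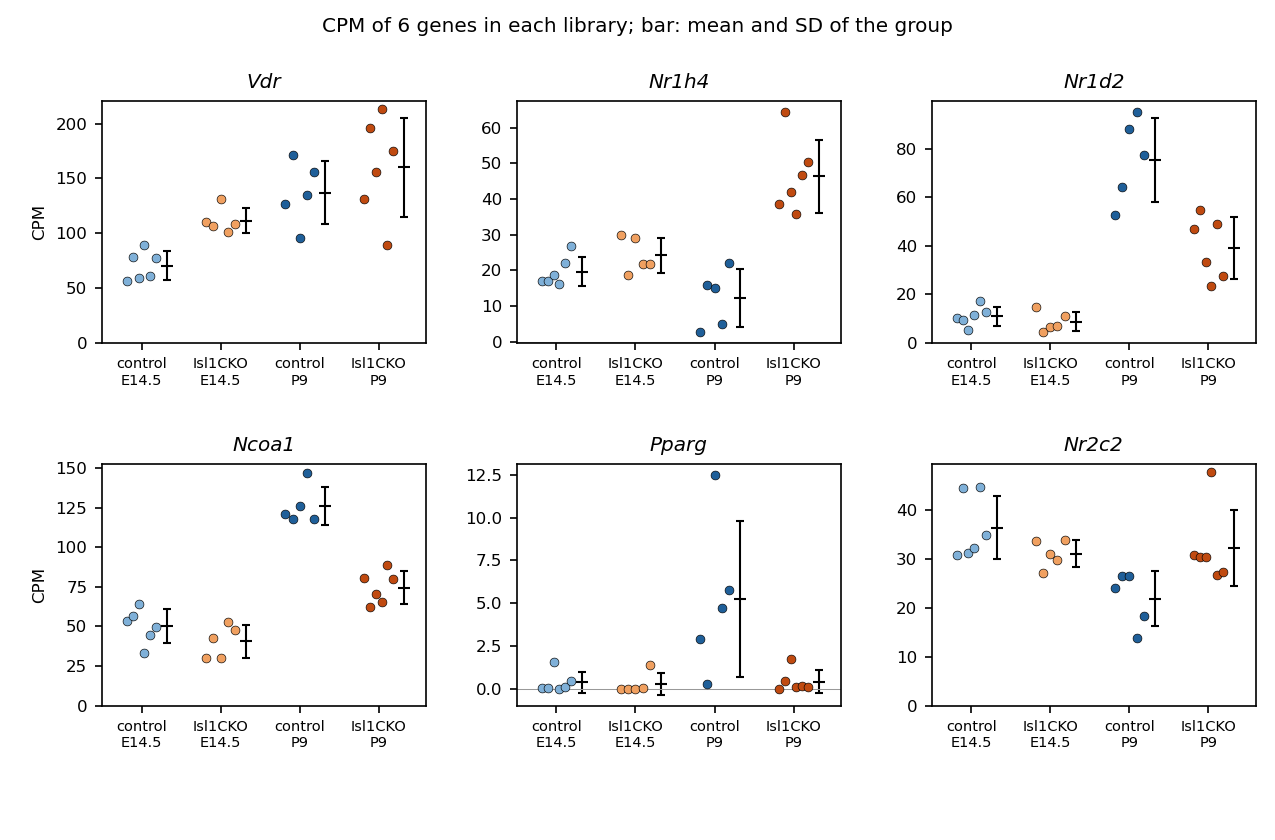
CPM of 6 genes in each library (points), with the mean and SD of each group beside them; the horizontal axis gives the 4 groups. *Vdr* is higher in all 5 *Isl1CKO* libraries than in the 6 controls at E14.5, and at P9 *Nr1h4* lies above and *Ncoa1* below every control library in all 6 *Isl1CKO* libraries.

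At P9 the bile acid receptor gene *Nr1h4* rose in *Isl1CKO*, and the clock receptor gene *Nr1d2* and the coactivator gene *Ncoa1* fell. *Nr1h4* lies at chr10:89454234-89533585 on the minus strand. Control libraries held 2.8, 16, 15.2, 4.9 and 22.2 CPM. The 6 *Isl1CKO* libraries held 35.9 to 64.5 CPM, with a median of 44.4. Every *Isl1CKO* library was thus above every control library. The log2 fold change was 1.92 (standard error 0.44), a 3.78-fold rise (adjusted p = 0.019, edgeR). At E14.5 the means were 19.6 ± 4.08 CPM in controls (SD, n = 6) and 24.3 ± 4.91 in *Isl1CKO* (n = 5), and the difference did not pass (log2 fold change 0.31 ± 0.18, adjusted p = 0.56 from edgeR). Markers of hepatoblasts, the liver being a known site of this receptor, summed to 13 to 32.8 CPM in P9 controls and 29.2 to 99.2 in P9 *Isl1CKO*, with overlap. The 7 duct markers summed to 245 to 322 and 263 to 777 CPM, also with overlap, and the 7 endothelial markers to 2.23 to 7.7 and 12 to 32.5 CPM, without overlap. The part of these cell types in the rise was not tested.

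*Ncoa1*, also called *Src-1*, encodes a coactivator that binds many ligand-bound nuclear receptors and acetylates histones, and lies at chr12:4247362-4477182 on the minus strand. It was at 121, 118, 126, 147 and 118 CPM in the P9 controls. In *Isl1CKO* it was at 62.2 to 88.9 CPM, with a median of 75.2. No *Isl1CKO* library reached the lowest control. The log2 fold change was -0.76 (standard error 0.15), a 1.7-fold fall (adjusted p = 0.0069, edgeR). At E14.5, where its level was lower, *Ncoa1* was at 50.4 ± 10.5 CPM in controls (SD, n = 6) and 40.7 ± 10.4 in *Isl1CKO* (n = 5), without passing the test (log2 fold change -0.31 ± 0.18, adjusted p = 0.58 from edgeR).

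*Nr1d2* encodes REV-ERBβ, a heme-binding repressor of the circadian clock, and lies at chr14:18204054-18239127 on the minus strand. Its P9 controls held 52.6, 64.1, 88.2, 95.2 and 77.2 CPM. The *Isl1CKO* libraries held 23.3 to 54.5 CPM with a median of 40.1, and the highest of them lay above the lowest control. The log2 fold change was -0.96 (standard error 0.25), a 1.94-fold fall (adjusted p = 0.042, edgeR). This call was lost when 1 of 7 libraries was left out, namely control 2, 3, 4 or 5 or *Isl1CKO* 3, 4 or 6, with adjusted p-values of 0.061 to 0.11 and log2 fold changes of -1.02 to -0.85. The paralog *Nr1d1*, which encodes REV-ERBα, stood at -0.88 ± 0.66 on the log2 scale (edgeR, adjusted p = 0.57). *Nr1d1* overlaps *Thra* on the opposite strand, and the library kit does not mark the strand, so reads from the shared stretch cannot be assigned.

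Of 33 members tested at P9, 1 was called higher and 2 lower, where 2.66% of all tested genes were called higher and 2.14% lower. The size of the falls depended on the library size used. With total counts, which take in the hormone transcripts, all tested genes had a median of 0.681 on the log2 scale, and *Nr1h4* stood at 2.58 and stayed called, *Nr1d2* at -0.31 (adjusted p = 0.38 from edgeR) and *Ncoa1* at -0.09 (adjusted p = 0.72 from edgeR), so the falls of *Nr1d2* and *Ncoa1* are falls relative to the other genes. On that scale 9 members were called higher and 1 lower, where 27.3% and 1.08% of all tested genes were. Immediate early genes, which respond to handling of cells, moved alongside: their 13 transcripts summed to 1802 to 3069 CPM in P9 controls and to 598 to 2199 in *Isl1CKO*. The sums of pan-endocrine, α-cell and β-cell markers also did not overlap between the P9 genotypes. The part of the immediate early genes and of the endocrine cell types in the results for *Nr1h4*, *Nr1d2* and *Ncoa1* was not tested.

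A RefSeq start of each of these 4 genes is shown because theirs were the only counts that passed the genotype test. The windows of *Vdr* and *Nr1h4* lie inside the gene spans given above. They precede a start within the span and not the one at its end. Each sequence is the 250 bases before the RefSeq transcription start (GRCm38.p6), written 5′ to 3′ on the gene's strand, with the core motif AGGTCA, or TGACCT where it lies on the other strand, in capitals.
Vdr, chr15:97908297-97908546, minus strand: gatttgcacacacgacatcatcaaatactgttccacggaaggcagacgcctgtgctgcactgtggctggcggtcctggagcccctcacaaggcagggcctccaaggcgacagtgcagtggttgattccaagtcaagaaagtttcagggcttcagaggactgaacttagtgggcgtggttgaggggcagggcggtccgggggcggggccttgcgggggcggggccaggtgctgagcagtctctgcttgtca
Nr1h4, chr10:89506659-89506908, minus strand: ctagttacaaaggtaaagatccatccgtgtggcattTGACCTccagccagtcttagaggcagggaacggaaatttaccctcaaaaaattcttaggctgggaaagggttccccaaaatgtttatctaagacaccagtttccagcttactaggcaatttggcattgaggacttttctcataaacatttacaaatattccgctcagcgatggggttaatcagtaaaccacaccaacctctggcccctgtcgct
Nr1d2, chr14:18239107-18239356, minus strand: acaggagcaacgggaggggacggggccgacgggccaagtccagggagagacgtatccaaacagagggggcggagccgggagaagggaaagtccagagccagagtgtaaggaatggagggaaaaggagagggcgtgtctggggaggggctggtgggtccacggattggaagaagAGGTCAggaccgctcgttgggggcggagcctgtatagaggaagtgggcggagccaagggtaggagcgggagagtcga
Ncoa1, chr12:4477183-4477432, minus strand: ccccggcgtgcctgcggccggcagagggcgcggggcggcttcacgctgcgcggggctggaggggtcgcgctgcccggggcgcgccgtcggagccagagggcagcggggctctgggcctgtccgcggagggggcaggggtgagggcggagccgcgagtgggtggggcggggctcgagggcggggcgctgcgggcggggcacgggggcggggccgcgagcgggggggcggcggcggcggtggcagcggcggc
The motif occurred in the windows of *Nr1h4* and *Nr1d2* and not in those of *Vdr* and *Ncoa1*. Searched on both strands, it was in 14% of all 32851 promoter windows of this length and in 10 of the 60 windows, 16.7%, of the 41 members with an entry. The E-box CACGTG, on which CLOCK and BMAL1 act, was in 6.02% of all windows and in 5 of the 60. CTAATG, a core bound by LIM-homeodomain factors, was in 6.36% of all windows and in 1 of the 60. The GC content of the windows ran from 44.4% for *Nr1h4* over 61.2% for *Vdr* and 63.6% for *Nr1d2* to 85.6% for *Ncoa1*.

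*Pparg* lay just outside the threshold at P9. It encodes PPARγ, the fatty acid receptor targeted by thiazolidinedione drugs, and lies at chr6:115360951-115490399 on the plus strand. The P9 controls held 2.94, 0.302, 12.5, 4.75 and 5.78 CPM, from 21, 2, 91, 30 and 44 counts. The *Isl1CKO* libraries held 0 to 1.72 CPM with a median of 0.163, from 23 counts in all. Control 2 lay within the range of *Isl1CKO*, and the other 4 controls lay above it. The log2 fold change was -3.59 ± 1.0 (adjusted p = 0.062 from edgeR), whereas DESeq2 gave -3.63 with an adjusted p of 0.006. *Ppard*, for the widely expressed PPARδ, was at 10.1 ± 5.65 CPM in P9 controls (SD, n = 5) and 4.04 ± 2.71 in *Isl1CKO* (n = 6), a difference of -1.32 ± 0.65 (log2) that did not pass (adjusted p = 0.32 from edgeR). *Ppara*, for PPARα of fatty acid oxidation, was too low to test within either age. *Nr1i3*, for the xenobiotic receptor CAR, held 1 count in all E14.5 controls and 13 in all E14.5 *Isl1CKO*.

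Libraries did not overlap between the genotypes at P9 for *Nr1h4* and *Ncoa1* and also for *Nr2c2* and *Pgr*, against 5.44% of all tested genes. *Nr2c2*, which encodes the orphan receptor TR4, was at 24, 26.6, 26.5, 13.9 and 18.4 CPM in controls. In *Isl1CKO* it was at 26.8 to 47.8 CPM with a median of 30.5. The highest control and the lowest *Isl1CKO* library were almost level, and the log2 fold change of 0.56 ± 0.27 did not pass (adjusted p = 0.31 from edgeR). *Pgr*, the progesterone receptor gene, was not tested, with 38 counts in all controls and 37 in all *Isl1CKO* libraries; the groups were apart on the CPM scale only, at 0.949 to 1.38 and 0.314 to 0.915.

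**Figure D3:**
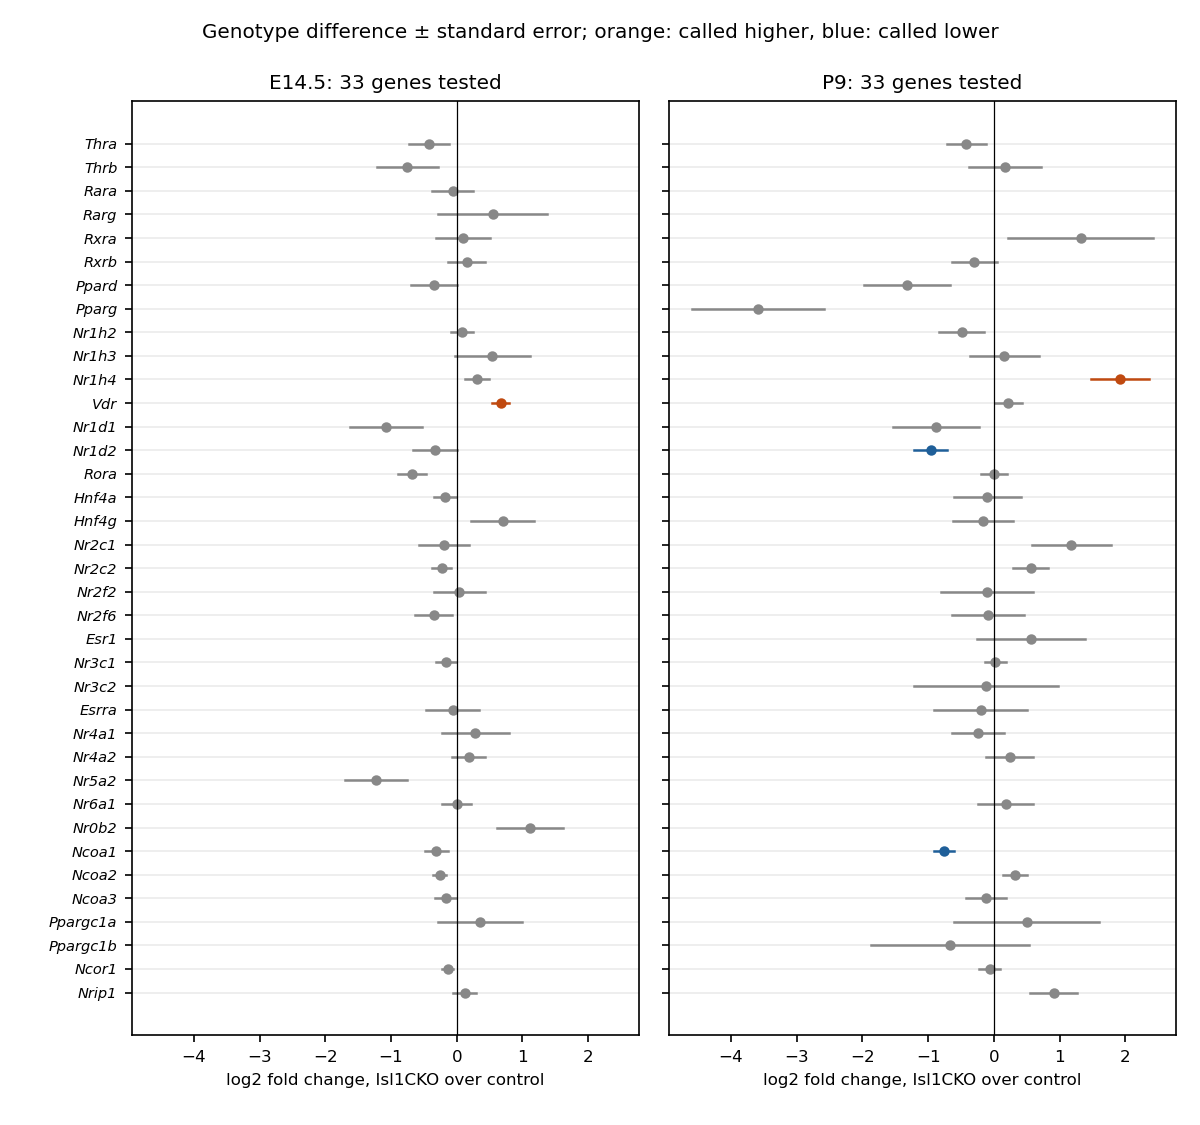
Log2 fold change of *Isl1CKO* over control with its standard error for the 33 members tested at E14.5 (left) and the 33 tested at P9 (right), on a shared horizontal axis. *Vdr* at E14.5 and *Nr1h4* at P9 are in orange (called higher), *Nr1d2* and *Ncoa1* at P9 in blue (called lower), and the others in grey.

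The remaining receptors are given by role. Of the thyroid hormone receptors, *Thra* had log2 fold changes of -0.42 ± 0.30 at both ages, and *Thrb* of -0.75 ± 0.46 at E14.5 and 0.17 ± 0.55 at P9. For the retinoid receptors, *Rara* and *Rarg* stood at -0.06 ± 0.31 and 0.55 ± 0.83 at E14.5 and were too low to test at P9, while the dimer partners *Rxra* and *Rxrb* ran from -0.30 to 1.32 over both ages. The oxysterol receptor genes *Nr1h2* and *Nr1h3* were at 0.08 ± 0.17 and 0.54 ± 0.57 at E14.5 and at -0.49 ± 0.34 and 0.16 ± 0.53 at P9. None of these passed (adjusted p of 0.51 or more from edgeR).

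*Hnf4a*, a regulator of liver, gut and β-cell genes, was at 27.9 ± 5.41 CPM in E14.5 controls (SD, n = 6) and 24.6 ± 4.98 in *Isl1CKO* (n = 5), and at 19 ± 11.7 (n = 5) and 17.8 ± 2 (n = 6) at P9. Its log2 fold changes were -0.18 ± 0.17 and -0.10 ± 0.51, and those of *Hnf4g* 0.70 ± 0.48 and -0.17 ± 0.46, with none past the test. Among the other NR2 receptors, *Nr2c1*, *Nr2f2* and *Nr2f6* were tested at both ages and ran from -0.35 to 1.18, the highest being *Nr2c1* at P9 (1.18 ± 0.60, adjusted p = 0.34 from edgeR). *Nr2f1* was at or under 0.982 CPM in the mean of every group, and *Nr2e1* held 4 counts in all P9 controls and 14 in all P9 *Isl1CKO*.

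The glucocorticoid receptor gene *Nr3c1* did not pass at either age. It was at 90.5 ± 20.2 CPM in E14.5 controls (SD, n = 6) and 80.9 ± 10 in *Isl1CKO* (n = 5), and at 183 ± 27.1 (n = 5) and 186 ± 33.6 (n = 6) at P9, with log2 fold changes of -0.16 ± 0.15 and 0.02 ± 0.16. The other steroid receptors were low: the mineralocorticoid receptor gene *Nr3c2* reached 10.3 CPM in P9 controls and 9.74 in P9 *Isl1CKO* in its highest libraries, and at E14.5 stayed at or under 0.271. *Esr1*, for estrogen receptor α, had group means of 0.373 to 2.28 CPM. *Esr2*, for estrogen receptor β, held 3 counts in all P9 controls and 13 in all P9 *Isl1CKO*, a ratio of 2.67 with a 95% interval of 0.735 to 14.6 that covers counting error only. *Esrra* had group means of 2.98 to 3.52 CPM and log2 fold changes of -0.06 ± 0.40 and -0.20 ± 0.71, and *Esrrb* stayed at or under 1.32 CPM in the mean.

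The NR4A receptors, which are induced within minutes by many stimuli, did not pass between genotypes: *Nr4a1* had log2 fold changes of 0.28 ± 0.51 and -0.24 ± 0.40 and *Nr4a2* of 0.18 ± 0.25 and 0.24 ± 0.36 at E14.5 and P9. *Nr6a1* was at 0.00 ± 0.22 and 0.18 ± 0.42. *Nr0b2*, whose product lacks a DNA-binding domain and represses other receptors, held 27 and 43 counts in *Isl1CKO* libraries 1 and 2 of P9 and 1 count in the other 4 together. The 5 controls held 1 count, so the ratio of 43.8 (95% interval 7.61 to 1754, counting error only) rested on 2 libraries, and the gene was too low for the test at P9. At E14.5 *Nr0b2* was at 0.435 to 3.84 CPM in controls and 2.66 to 5.02 in *Isl1CKO*, with ranges that overlapped.

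Among the coregulators besides *Ncoa1*, *Ncor1* had log2 fold changes of -0.14 ± 0.084 at E14.5 and -0.06 ± 0.16 at P9, and *Ncoa3* of -0.17 ± 0.16 and -0.12 ± 0.31. *Ncoa2* was at -0.26 ± 0.10 at E14.5 and 0.32 ± 0.18 at P9. *Nrip1*, which encodes the corepressor RIP140, was at 21.7 ± 6.78 CPM in P9 controls (SD, n = 5) and 40.8 ± 19.4 in P9 *Isl1CKO* (n = 6), a difference of 0.91 ± 0.36 (log2) that did not pass (adjusted p = 0.18 from edgeR). *Ppargc1a*, the gene for PGC-1α, which drives mitochondrial genes, was at 0.36 ± 0.64 and 0.50 ± 1.1, and *Ppargc1b* at -0.67 ± 1.2 at P9. The median log2 fold change over the 33 members tested at P9 was -0.09, against 0.023 over all tested genes.

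Whether the effect of the deletion differed between the ages was tested with the interaction term of a model over all 22 libraries. No member of 40 passed in edgeR, where 2.08% of all tested genes did; 7 members had an unadjusted p under 0.05, and DESeq2 called *Nr1h4* and *Ppara*. *Nr1h4* came closest in edgeR, with the P9 log2 fold change larger than that of E14.5 by 1.61 ± 0.48 (adjusted p = 0.08). Without P9 control 5 this difference was 1.95 and passed (adjusted p = 0.031 from edgeR). The call of *Ppara* by DESeq2 rested on few counts, 61 in controls and 9 in *Isl1CKO* at E14.5 and 11 and 106 at P9. For *Vdr* the difference was -0.44 and for *Nr1d2* and *Ncoa1* the genotype effect was not shown to differ between the ages either. Without P9 control 1 *Nr5a2* passed, and without P9 *Isl1CKO* library 1 *Ncoa2* did. With total counts 9 members passed, where 18.4% of all tested genes did.

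Between E14.5 and P9 the control cells changed much more than the genotypes differed. Of 40 members tested, 16 were higher and 4 lower in P9 controls, where 15.8% and 15.2% of all tested genes were. The median log2 fold change over the members was 0.44 and over all tested genes -0.039. P9 pancreas was digested with collagenase before trypsin and E14.5 pancreas with trypsin alone, and the ages have separate count tables, so that age cannot be told apart from these steps. The direction of calls also depended on the scale. With total counts as library sizes the median of all genes moved to -1.21 and the calls to 5 higher and 16 lower, where 3.5% and 58.1% of all tested genes were, whereas with totals without the 8 hormone genes the median was -0.145 and the calls were again 16 and 4.

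All 4 clock receptor genes rose with age. The paper does not state the time of day of collection for any group, and its part in the levels of clock genes was not tested. *Nr1d2* was at 5.23 to 17.1 CPM in the 6 E14.5 controls, with a median of 10.6, and at 52.6 to 95.2 in the P9 controls, 2.79 ± 0.31 higher in log2 (edgeR, adjusted p = 3.4e-07) with no overlap. *Rora*, which activates the clock genes that REV-ERB proteins repress, was at 18.2 to 41.7 and at 80.7, 82.1, 110, 92.9 and 75.9 CPM, also without overlap (1.69 ± 0.21). *Nr1d1* rose by 1.87 ± 0.63 and *Rorb*, a relative of *Rora*, by 2.19 ± 0.75, from 0.0703 to 1.11 CPM (median 0.469) to 0.559, 6.34, 1.24, 3.64 and 0.525 CPM. Both had ranges that overlapped. With total counts *Nr1d1* was at 0.73 and *Rorb* at 0.97, neither past the test.

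The stress and activity related NR4A receptors rose as well. *Nr4a1* was at 2.01 to 10.1 CPM in E14.5 controls (median 5.07) and at 38.6, 32, 15.2, 27.2 and 17.5 at P9, 2.27 ± 0.50 higher in log2 (edgeR, adjusted p = 0.0012) without overlap. *Nr4a2* rose by 1.21 ± 0.32 and *Nr4a3* by 3.11 ± 1.1, the latter from 0.0622 to 0.31 CPM (median 0.124) to 0.14, 4.53, 1.52, 0.791 and 0.131 CPM, with P9 controls 1 and 5 inside the E14.5 range. With total counts none of these 3 passed, at 1.10, 0.04 and 1.92. The immediate early genes, which share this kind of induction, were called higher in 7 and lower in 1 of 13 with age, against the 15.8% and 15.2% of all tested genes.

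Lipid and steroid receptors included the largest rises. *Nr3c2* went from 0.0621 to 0.211 CPM (12 counts in all 6 libraries) to 0.419, 3.62, 7.58, 10.3 and 0.131 CPM, 5.01 ± 1.2 higher in log2 (edgeR, adjusted p = 0.002). Its P9 libraries spread over a wide range and control 5 lay within the range of E14.5. *Ppargc1b*, a coactivator of mitochondrial and lipid genes, was at 0 to 0.683 CPM at E14.5 and at 7.13, 4.07, 2.34, 3.48 and 0.263 at P9 (4.13 ± 1.2). *Pparg* was at 0 to 1.56 CPM (median 0.0934) and then at the P9 values given above (3.75 ± 1.3). *Nr1h3*, which encodes LXRα, was at 0.435 to 4.51 CPM (median 1.55) and at 4.19, 26.7, 16, 26.1 and 14.6 at P9 (3.20 ± 0.59, adjusted p = 2.1e-04 from edgeR). In each of these the P9 libraries overlapped the E14.5 range in 1 library at most.

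The abundant members rose by smaller amounts. *Ncoa1* rose by 1.32 ± 0.17, *Nr3c1* by 1.02 ± 0.16, *Ncor1* by 0.97 ± 0.12 and *Vdr* by 0.96 ± 0.18 on the log2 scale, each without overlap between the ages. With total counts, where the median of all genes was -1.21, *Vdr* stood at -0.23, *Nr3c1* at -0.16, *Ncor1* at -0.21 and *Ncoa1* at 0.15, all above that median. *Hnf4g* completed the rises at 1.32 ± 0.47.

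The 4 members that fell were *Nr0b2*, *Rara*, *Nr2c1* and *Nr2c2*. *Nr0b2* had 179 counts in the 6 E14.5 controls, at 0.435 to 3.84 CPM, and 1 count in the 5 P9 controls, a ratio of 65.4 (95% interval 11.6 to 2596, counting error only; adjusted p = 0.0068 from edgeR). *Rara*, for retinoic acid receptor α, was at 3.32 to 8.42 CPM (median 5.9) and then at 3.49, 0.453, 1.24, 0.475 and 0.131, -2.30 ± 0.67 in log2 (edgeR, adjusted p = 0.012), with only P9 control 1 within the E14.5 range. The TR2 gene *Nr2c1* was at 6.71 to 24.6 CPM (median 11.4) and then at 5.45, 2.26, 2.07, 9.33 and 4.46 (-1.52 ± 0.51), and its paralog *Nr2c2* at 30.9 to 44.7 and then at 13.9 to 26.6, without overlap (-0.73 ± 0.20).

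Several of these age calls were lost in fits with 1 library left out, some with little change in size. *Hnf4g* lost its call without E14.5 control 2, 3, 4, 5 or 6 or P9 control 1 or 5, with values of 1.16 to 1.30. *Nr4a3* lost it without E14.5 control 1, 2, 3 or 6 or P9 control 2 or 3, and was lowest at 1.98 without P9 control 2. *Pparg* lost it without E14.5 control 1, 2, 4 or 5 or P9 control 3, the last giving 3.13. The mean of these 3 genes in E14.5 controls was at most 3.27 CPM. *Rorb* lost its call without E14.5 control 1, 2 or 6 or P9 control 2 or 4, and fell to 1.46 without P9 control 2. *Nr2c1* lost it without E14.5 control 4 or 5 or P9 control 2 or 3, with values of -1.42 to -1.25. *Nr1d1* lost it without E14.5 control 1 or 4 or P9 control 3, the last giving 1.13. The other 14 calls passed in all 22 fits with 1 library left out.

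**Figure D4:**
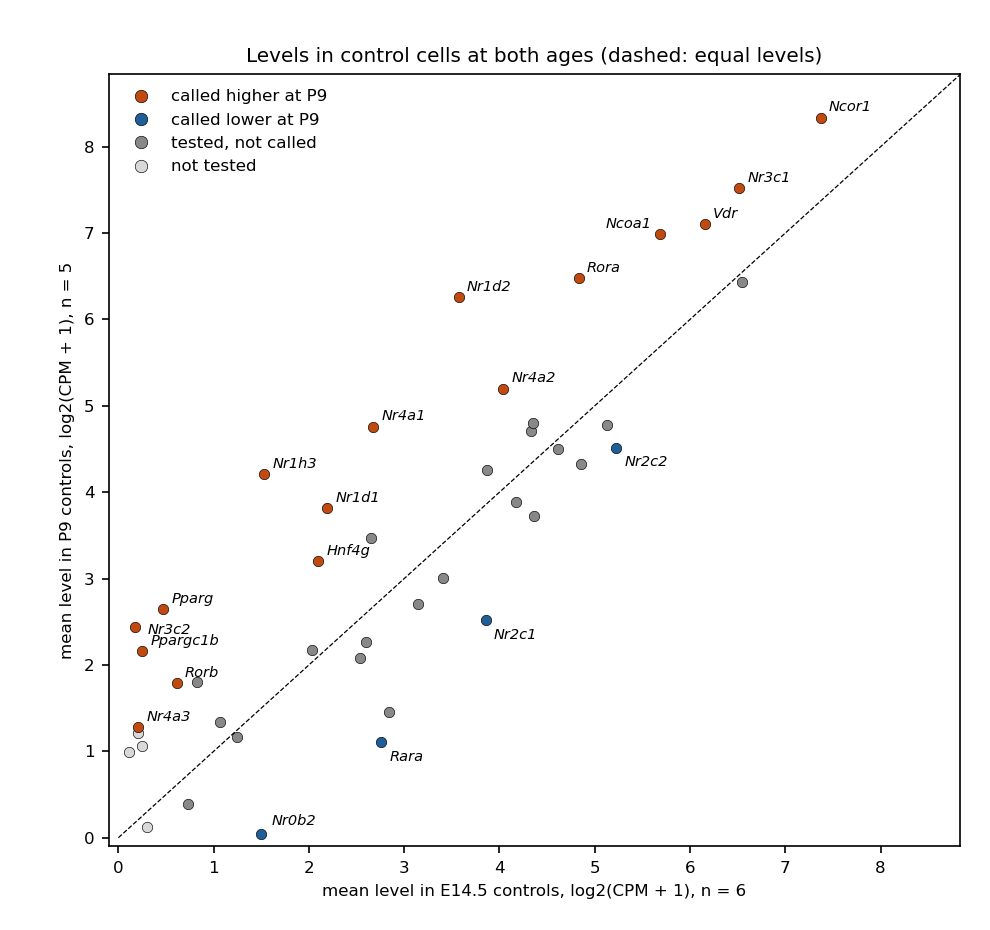
Mean level of each member in P9 controls (vertical axis, n = 5) against E14.5 controls (horizontal axis, n = 6), both as log2(CPM + 1), with the dashed line at equal levels. The 16 genes called higher at P9 lie above the line in orange and the 4 called lower lie below it in blue.

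Genes that handle the ligands or are known targets of these receptors were read from lists. Of 8 vitamin D genes, 4 were tested at E14.5 and 3 at P9, and 1 was called higher at each age, *Gc*, the gene of the serum carrier of vitamin D, which α-cells also express. The paper counts *Gc* among the genes of intermediate endocrine progenitors that were enriched in *Isl1CKO* cells at P9. *Gc* was at 4.22 to 13.2 CPM in E14.5 controls and 53.9 to 115 in *Isl1CKO* (log2 fold change 3.47 ± 0.29, adjusted p = 2.5e-05 from edgeR), and at 14.8 to 32.8 and 27.5 to 284 at P9 (2.11 ± 0.52, adjusted p = 0.031 from edgeR). *Cyp24a1*, the calcitriol-degrading enzyme and a classical target of VDR, held 5 counts in E14.5 controls and 7 in *Isl1CKO*, and 11 and 26 at P9, too few to test. *Cyp24a1*, like *Abcb11*, *Fkbp5*, *Dbp* and *Per3*, was named after its values were seen.

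For the bile acid receptor the list held 11 genes, *Nr0b2* among them, of which 4 were tested at E14.5 and 2 at P9. None was called by edgeR or by DESeq2 at either age, with 1 and 0 at an unadjusted p under 0.05. *Abcb11*, the bile salt export pump and a target of FXR, was at 3.28 ± 1.46 CPM in P9 controls (SD, n = 5) and 2.57 ± 2.33 in *Isl1CKO* (n = 6), or -0.35 ± 0.68 on the log2 scale. Of 10 LXR targets, 8 were tested at each age. None passed in edgeR at E14.5 (2 at an unadjusted p under 0.05, 1 in DESeq2). At P9, 4 were at an unadjusted p under 0.05 and 2 were called by DESeq2. In edgeR 1 passed at P9, *Srebf1*, the lipogenic transcription factor gene. It fell from 63.8 to 110 CPM in controls to 33 to 80 in *Isl1CKO* (-0.91 ± 0.25, adjusted p = 0.049 from edgeR). Of 15 PPAR targets, 13 were tested at E14.5, where *Ucp2*, for a mitochondrial carrier, rose (0.55 ± 0.11, adjusted p = 0.019 from edgeR). None of the 12 tested at P9 passed in edgeR, with 2 at an unadjusted p under 0.05 and 2 in DESeq2.

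The glucocorticoid list held 9 tested genes at each age. At E14.5 none passed (edgeR, 1 at an unadjusted p under 0.05, 0 in DESeq2). At P9 *Hsp90ab1*, the chaperone that holds the unliganded receptor, rose by 0.43 ± 0.11 (adjusted p = 0.037, edgeR), and *Dusp1*, a phosphatase gene that glucocorticoids and immediate early signals both induce, fell from 144 to 308 CPM to 21.2 to 85.6 (-2.19 ± 0.31, adjusted p = 6.6e-04 from edgeR). *Fkbp5*, a widely used glucocorticoid target, was at 53.3 ± 7.96 CPM in controls (SD, n = 5) and 105 ± 100 in *Isl1CKO* (n = 6), and did not pass (0.98 ± 0.44 in log2, adjusted p = 0.26 from edgeR). *Isl1CKO* library 5 held 304 CPM and the other 5 held 39.1 to 99.4, and without it the log2 fold change was 0.30. The immediate early genes *Fos*, *Fosb* and *Jund* fell at P9 by 1.29, 1.85 and 1.14 on the log2 scale. They were 3 of the 11 tested, where 2.14% of all tested genes were called lower. Of the 11, 5 were at an unadjusted p under 0.05 and 4 were called by DESeq2.

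Thyroid hormone handling was lower in 1 gene at each age, *Slc16a10*, which encodes the thyroid hormone and amino acid transporter MCT10. It was at 103 to 128 CPM in E14.5 controls and 62.7 to 89.4 in *Isl1CKO* (-0.57 ± 0.11, adjusted p = 0.016 from edgeR), and at 158 to 232 and 34.2 to 140 at P9 (-1.0 ± 0.27, adjusted p = 0.042 from edgeR), without overlap at either age. With age, 4 of the 7 tested genes of this list rose in controls, where 15.8% of all tested genes did. None of the 13 and 14 clock genes tested at E14.5 and P9 was called by edgeR (2 and 2 at an unadjusted p under 0.05, 0 and 2 in DESeq2). *Dbp*, a clock output gene, was at 12.7 to 36.2 CPM in P9 controls and 5.74 to 11.9 in *Isl1CKO*, without overlap (-1.36 ± 0.38, adjusted p = 0.057 from edgeR). With age, 8 of 14 clock genes rose, against the same 15.8%, among them *Per3* by 2.09 ± 0.29.

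Of 7 further receptor genes 2 were tested, and *Esrrg*, which encodes the estrogen-related receptor ERRγ of oxidative metabolism, rose at both ages. It was at 3.26 to 8.79 CPM in E14.5 controls and 12.5 to 24.6 in *Isl1CKO* (1.72 ± 0.28, adjusted p = 0.0063 from edgeR), and at 0.919 to 18.6 and 17.5 to 76.6 at P9 (2.58 ± 0.64, adjusted p = 0.032 from edgeR). Of 18 further coregulators *Ncoa7* fell at E14.5, from 57.9 to 70.1 CPM to 26.1 to 49.8 (-0.73 ± 0.14, adjusted p = 0.018 from edgeR), and none passed at P9 in edgeR or DESeq2, with 2 at an unadjusted p under 0.05. Of 10 partners and targets of HNF4 factors, 9 were tested at E14.5 and 6 at P9. Called higher were 2 and 1, where 0.602% and 2.66% of all tested genes were, and none was called lower. *Ttr*, for the thyroid hormone and retinol carrier transthyretin, rose at E14.5 (0.80 ± 0.076, adjusted p = 8.7e-05 from edgeR) and P9 (1.07 ± 0.23, adjusted p = 0.014 from edgeR). *Apoa1* rose at E14.5 from 0 to 5.98 CPM to 9.46 to 41.7 (4.16 ± 0.95, adjusted p = 0.044 from edgeR) and was not tested at P9. *Apoa1* is also a hepatoblast marker, and *Ttr* an α-cell and liver gene.

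Several calls in these lists were close to the threshold and were lost with 1 library left out, with little change in size. At P9 this held for *Srebf1* (each library except *Isl1CKO* 3, -0.99 to -0.79), *Hsp90ab1* (each control and *Isl1CKO* 2, 4 and 6, 0.38 to 0.45), *Slc16a10* (each control and *Isl1CKO* 3, 4 and 6, -1.08 to -0.95), *Esrrg* (controls 1 and 3 and *Isl1CKO* 4 and 6, 2.36 to 2.52) and *Gc* (controls 1 to 4, 1.99 to 2.19). *Gc* at P9 passed without *Isl1CKO* library 1 but dropped to 1.36. At E14.5 it held for *Apoa1* (each library except control 6, 3.80 to 4.36), *Ucp2* (*Isl1CKO* 5, 0.48) and *Ncoa7* (*Isl1CKO* 3, -0.70). Without control 6, *Apoa1* was at 6.40.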

How the data were processed

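RNA of 100 sorted cells per library was sequenced by the authors. Bowtie 1.2.2 and SortMeRNA filtered ribosomal reads, STAR 2.7.0c mapped the rest to GRCm38, and Rsubread counted uniquely placed reads per gene; the submitters' processing notes also name cutadapt. The deposited tables hold raw counts per Ensembl gene, 1 per age. Symbols, positions and exon lengths came from GENCODE M21, which holds 27078 and 27456 of the IDs and is a later release than the one the authors name.

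The test was that of edgeR 4.0.16 (R 4.3.3, TMM, filterByExpr, quasi-likelihood F test), each age on its own 11 libraries and age and interaction on all 22. P-values were adjusted by Benjamini-Hochberg over all genes tested, and a gene was called at an adjusted p under 0.05. Standard errors are the log2 fold change over the square root of F. DESeq2 1.42.0 and other scalings and filters were alternatives. The scripts were tested on simulated data. Groups and replicate numbers came from the sample labels.

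All 47 genes are accounted for. Values per library are given for those called, at an adjusted p up to 0.1 or not overlapping between genotypes, and for the 8 largest age calls in each direction. From the other lists, up to 4 called genes per list and age are named, and 5 more after their values were seen. The members, lists and tests were chosen with earlier results of these data known. Promoters came from RefSeq. Libraries of a group differed by at least 17.8 times counting noise, so none counts as a duplicate. Intervals cover counting error only.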

Additional observations from a re-analysis of the deposited data

Results flagged for a closer look

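In the P9 controls, library 4 lay far above the other 4 for *Ncoa1*, at 147 CPM against 118 to 126. Its gap to the nearest library took up 0.715 of the range of the group, past Dixon's critical value for 5 samples. Of 16 groups of values tested this way it was the 1 to pass, and chance gives about 1 in 20. Without that library the fall of *Ncoa1* still passed.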

How the results depend on the processing

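The rise of *Nr1h4* at P9 kept its direction and its call under every setting tried. With 1 library left out it was at 1.66 to 2.24, with adjusted p-values of 0.016 to 0.049 (edgeR), the highest close to the threshold. The count of members called at E14.5 was 1, and 2 with DESeq2, 0 to 1 with 1 library left out and 0 without the 3 *Isl1CKO* libraries high in macrophage markers, a setting chosen after seeing the data. At P9 it was 3, and 10 with total counts (9 higher and 1 lower, where 27.3% and 1.08% of all tested genes were) and 2 to 3 with 1 library left out. For the interaction it was 0, and 2 with DESeq2, 9 with total counts (18.4% of all tested genes) and 0 to 1 with 1 library left out. With total counts the age differences of *Vdr*, *Nr3c1* and *Ncor1* turned to -0.23, -0.16 and -0.21, where the median of all genes moved to -1.21. Without a filter on low counts *Nr1d2* at P9 was at -0.93 (edgeR, adjusted p = 0.081), and the cause was not tested.

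Samples with the same replicate number showed little joint deviation (correlations of -0.0514 to 0.0536, against at most 0.0469 with other numbers). No pairing by number was seen, but values this small cannot exclude one. With a replicate block, which takes 5 numbers per age, 0 members were called at E14.5 and 1 at P9, *Nr1h4*. The same libraries without the block gave 1 and 2. At each age 14 members were not tested, being missing from the table or under the filter on low counts.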
